A study of Mus musculus with 3 samples.

Results

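RAB GTPases are the largest family of small GTP-binding proteins in the RAS superfamily and were taken here as the protein-coding mouse genes whose whole symbol is Rab, then a number, then at most 1 letter. The rule found 59 genes of the 27179 gene IDs in the count table. The series holds RNA-seq of 3 sorted samples of ILC2s (group 2 innate lymphoid cells), tissue lymphocytes that lack rearranged antigen receptors and make type 2 cytokines. The cells came from 3 wild-type mice of the C57BL/6 strain with no treatment named, and each library, taken to be 1 mouse, is called mouse 1, 2 or 3 after its sample number. The sort kept cells with CD45, CD90.2, CD127 and KLRG1 and removed cells with B220, CD11b, CD11c, NK1.1, CD3, CD5 or CD8. The sources used here do not give the tissue, time of collection, age or sex. There is 1 group, so no contrast between conditions exists.

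A RAB protein switches between a GDP-bound form held in the cytosol and a GTP-bound form on the membrane of a particular compartment. Exchange factors load GTP, GTPase-activating proteins end the active state, and effectors bound by the active form move, tether or fuse vesicles. Lymphocytes use this machinery to recycle surface receptors, to carry new cytokines through the Golgi and to release stored granules.

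The libraries held 17819551 to 26374248 counts. Levels are CPM, the counts of a gene divided by the library total after trimmed-mean (TMM) scaling, and comparisons between genes use CPM per kb of exon. Where 3 values are given they are those of mice 1, 2 and 3 in that order. All 13 ILC2 markers were detected, which here means at least 1 CPM in each of the 3 libraries. Transcripts of other lineages were unevenly present. The 13 B and plasma cell markers summed to 12813, 34725 and 63349 CPM in mice 1, 2 and 3, with 9 detected and Ms4a1 and Pax5 at 0, and immunoglobulin genes took 1.04%, 3.89% and 7.81% of counts. The 9 NK cell and ILC1 markers summed to 8.47, 244 and 55.4 CPM, with 2 detected, and Gzma alone had 7.19, 229 and 48.2. The 8 ILC3 markers summed to 319 to 530 CPM with 5 detected, the 10 T cell markers to 291 to 412 with 4 detected, and the 10 myeloid markers to 32.6 to 49.1 with 3 detected. The 12 mast cell, basophil and eosinophil markers summed to 23.8 to 37.0 CPM with 9 at 0, the 8 stromal and endothelial markers to 39.0 to 45.2 with 3 detected, and the 8 epithelial markers to 9.95 to 33.6 with 1 detected.

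Of the 59 RAB genes, 31 were detected, 19 had counts but were not detected, and 9 had no count in any library. The detected share was 52.5%, against 38.0% of 20983 protein-coding genes in the table. The 9 genes at 0 were Rab3b, Rab3c, Rab9b, Rab33a, Rab36, Rab38, Rab39, Rab42 and Rab44, and 38.2% of protein-coding genes had no count. A count of 0 allows up to 0.132, 0.171 and 0.115 CPM in mice 1, 2 and 3, from 3 counts and counting error only. RAB genes together took 0.503%, 0.469% and 0.534% of all counts. The median level of the detected RAB genes on the log2(CPM per kb + 0.5) scale was 3.99 ± 0.12 (SD, n = 3), and that of 8049 detected genes with a length was 2.55 ± 0.11. The gap of 1.44 ± 0.11 is a description of levels, since list medians were not tested.

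The RAB transcript level was held by few genes. Rab4a, Rab2a, Rab11a, Rab4b and Rab8b made up 72.4%, 74.8% and 70.1% of the summed CPM per kb of all 59 genes in mice 1, 2 and 3. Rab4a alone held 33.3% ± 2.4 (SD, n = 3), and 20.4% ± 2.0 per kb of coding sequence. Early endosome genes held 45.6% ± 3.0 (SD, n = 3) of the sum, Golgi genes 21.9% ± 0.56, exocytosis genes 14.6% ± 2.0, recycling endosome genes 11.9% ± 2.5 and late endosome genes 4.77% ± 1.1. Most of the early endosome share was Rab4a with Rab4b (7.71%), and most of the recycling share was Rab11a (11.4%). Rab4a also acts in recycling, so the order of the early and recycling groups rests on the role given to these genes. Per kb of coding sequence the early endosome share was 35.1% ± 2.8, the Golgi share 21.3% ± 1.1 and the exocytosis share 25.2% ± 2.9, so exocytosis genes then stood above Golgi genes. The recycling share was 13.5%, 13.1% and 9.05%, lowest in mouse 3, where the early endosome share of 48.0% was highest.

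**Figure D1:**
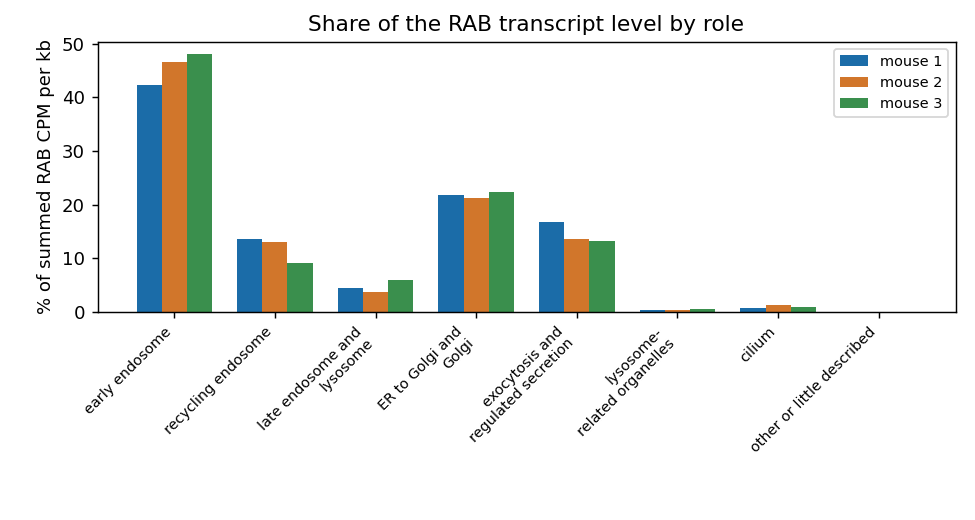
Share of the summed RAB CPM per kb of exon (%, vertical axis) held by each role group, with 1 bar per mouse. Early endosome genes take 42.2%, 46.5% and 48.0% in mice 1, 2 and 3, and the cilium, lysosome-related and little described groups each stay at or below 1.24%.

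**Figure D2:**
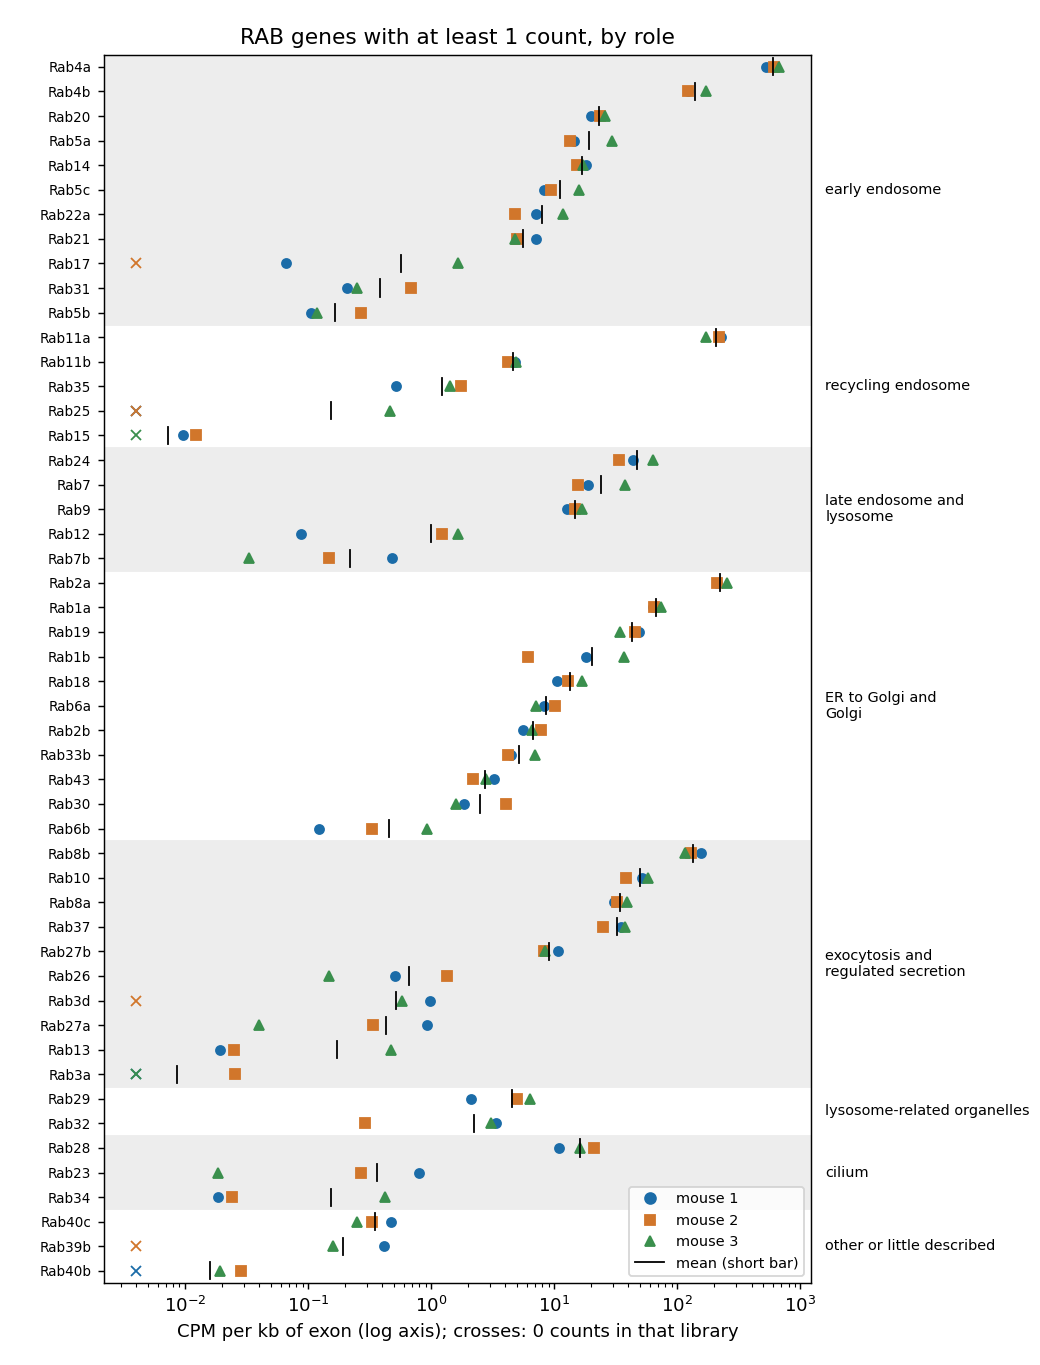
CPM per kb of exon (horizontal log axis) of the 50 RAB genes with at least 1 count, grouped by role. Symbols are the 3 mice, short bars the mean and crosses a library with 0 counts; the 3 symbols lie close together for abundant genes such as Rab4a and far apart for low ones such as Rab27a.

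Among the early endosome genes 8 of 11 were detected. Rab4a, which acts in fast recycling from early endosomes to the plasma membrane, was the most abundant RAB gene with 521, 605 and 670 CPM per kb in mice 1, 2 and 3. Its mean of 598 ± 74.7 (SD, n = 3) lay at the 99.0th percentile of detected genes. Rab4a lies on chromosome 8 (123805846 to 123835291, GRCm38.p6). Its close relative Rab4b had 122, 123 and 171 CPM per kb, so the lowest Rab4a library stood above the highest Rab4b library. The Rab4b value is uncertain, because 65.0% of its exon length overlaps the exons of Gm21983 on the same strand. Rab5a, Rab5b and Rab5c encode the fusion regulators that define the early endosome. Rab5a had 14.5, 13.3 and 29.5 CPM per kb and Rab5c 8.26, 9.38 and 15.9, both highest in mouse 3. Rab5b was near the bottom, with 0.105, 0.271 and 0.119. Rab14, which works between endosomes and the Golgi, had 18.2, 15.2 and 17.0 CPM per kb, and Rab20, a phagosome and endosome RAB, had 19.7, 23.3 and 25.6. In both the highest library was 1.20 times the lowest for Rab14 and 1.30 times for Rab20, though 25.6% of the exon length of Rab20 overlaps the opposite-strand gene E230013L22Rik. Rab14 depends strongly on the length used, as its summed exons span 13.6 kb: it ranked 16th per kb of exon and 7th per kb of coding sequence. Rab22a had 7.07, 4.75 and 11.8 CPM per kb and Rab21, which binds integrin tails, had 7.04, 5.003 and 4.79. The other 2 genes of the group, Rab17 and Rab31, were not detected.

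Of 5 recycling endosome genes 3 were detected. Rab11a, the main RAB of slow recycling through the perinuclear compartment, had 225, 219 and 172 CPM per kb, at chromosome 9 (64715300 to 64737756). Rab11b had 4.8004, 4.19 and 4.92, far below Rab11a in every library. Rab35, which acts in a fast recycling route at the plasma membrane, was the lowest detected RAB gene, with 0.516, 1.73 and 1.41. Rab15 had 1, 1 and 0 counts.

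Of 6 late endosome and lysosome genes 3 were detected. Rab7, the RAB of late endosome to lysosome fusion, had 18.9, 15.7 and 37.2 CPM per kb, highest in mouse 3. Rab9, which returns receptors from late endosomes to the Golgi, had 12.8, 14.6 and 16.8. Rab24, an atypical RAB linked to autophagy, had 43.8, 33.6 and 63.4. That value is uncertain, since 62.4% of its exon length overlaps the opposite-strand gene Prelid1, at 183, 155 and 227 CPM, and these libraries do not mark strand. Rab7 and Rab24 were both lowest in mouse 2 and highest in mouse 3. Rab12 was uneven, with 0.265, 3.70 and 5.02 CPM.

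Golgi genes were the broadest group, with 10 of 12 detected. Rab2a, which acts on the Golgi and on traffic towards it, had 208, 208 and 255 CPM per kb at chromosome 4 (8535469 to 8607702). Rab1a, needed for transport from the endoplasmic reticulum to the Golgi, had 63.5, 64.8 and 73.8, with a coefficient of variation of 8.34%, the lowest of the RAB genes tested for spread. Rab19, a little described RAB, ranked 9th with 48.6, 45.5 and 34.3 CPM per kb. Its relative Rab43 had 3.21, 2.20 and 2.80, uncertain because 75.4% of its exon length overlaps Gm45140 on the same strand. Rab18, which marks endoplasmic reticulum and lipid droplets, had 10.4, 12.9 and 16.7. Rab6a, of the retrograde route through the Golgi, had 8.30, 10.1 and 7.14, and 19.0% of its exon length overlaps the opposite-strand gene Mrpl48. Rab2b had 5.60, 7.76 and 6.61 and shares 59.3% of its exon length with Gm43766 on the opposite strand. Rab33b, a Golgi RAB that binds the autophagy protein ATG16L1, had 4.45, 4.20 and 6.98, and 18.7% of its exon length overlaps the opposite-strand gene Gm38160. Rab30 was the only detected Golgi gene with its highest value in mouse 2 at over 2 times each other library, with 1.85, 4.08 and 1.60.

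In the exocytosis and secretion group 5 of 13 genes were detected. Rab8b led with 156, 129 and 116 CPM per kb, and Rab8a, its close relative in transport from the Golgi to the surface, had 30.8, 32.4 and 39.2. Rab10, which acts in the same step, had 51.8, 38.4 and 57.6. Rab37, known from secretory granules, had 34.6, 24.9 and 37.5 CPM per kb. Rab27b, which docks secretory granules at the plasma membrane, had 10.8, 8.26 and 8.32. Its relative Rab27a, the RAB needed for release of lytic granules by cytotoxic lymphocytes, was not detected, with 0.921, 0.337 and 0.0395 CPM per kb from 81, 23 and 4 counts. Rab27b was thus higher than Rab27a in each library, and their ranges did not overlap. The granule gene Rab3d had 93, 0 and 63 counts, Rab26 had 33, 67 and 11, and Rab3a had 1 count in mouse 2. Rab44, a large RAB of granulocyte and mast cell granules, had no count.

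In the smaller groups Rab29, which recruits the kinase LRRK2 to lysosomes, had 2.10, 4.998 and 6.40 CPM per kb, and Rab28, a RAB of cilia and photoreceptors, had 10.97, 20.96 and 16.3. Rab32, of lysosome-related organelles such as melanosomes, had 3.34, 0.292 and 3.05 and missed detection through mouse 2 alone. Of the 6 other or little described genes none was detected, and Rab40c had the highest level, 0.350 ± 0.113 CPM per kb (SD, n = 3).

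The order at the top was not fixed between mice. Rab4a was first in 3 of 3 libraries. Rab11a was above Rab2a in mice 1 and 2 and below it in mouse 3, and Rab8b was above Rab4b in mice 1 and 2 and below it in mouse 3, so neither neighbouring pair was separated by the spread. Per kb of coding sequence Rab8b moved from 5th to 2nd.

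Paralogues that encode like proteins were compared within each library on the log2(CPM per kb + 0.5) scale. Of 21 pairs listed, 17 had at least 1 detected gene, and the same gene was higher in 3 of 3 libraries in all 17. Where the other gene was not detected, this filter largely set the direction in advance. The 7 pairs with both genes detected are free of that limit, and each of them had 1 direction. Rab5a, Rab5b, Rab5c and Rab11a each occur in more than 1 pair, so the pairs are not independent. With 3 libraries an exact two-sided sign-flip test cannot go below p = 0.25, which every pair had, and the value was 0.25 after Benjamini-Hochberg adjustment over the 17 pairs, so no pair can pass 0.05. The sizes below are followed by their range over pseudocounts of 0.1 to 1 and over exon, coding and no length. These ranges do not cover how reads in overlapping exons were counted. That bears on the lower genes Rab43, Rab4b and Rab2b, with 75.4%, 65.0% and 59.3% of exon length overlapped by 1 other gene. In the 7 pairs with both genes detected, Rab11a exceeded Rab11b by 5.32 ± 0.29 (SD, n = 3; range 4.40 to 5.43), Rab2a exceeded Rab2b by 4.97 ± 0.27 (4.09 to 5.05) and Rab19 exceeded Rab43 by 3.74 ± 0.34 (2.09 to 3.92). Rab4a exceeded Rab4b by 2.12 ± 0.17 (1.92 to 2.12), Rab1a exceeded Rab1b by 2.03 ± 1.18 (1.98 to 2.79) and Rab8b exceeded Rab8a by 1.95 ± 0.39 (1.94 to 1.98). Rab5a exceeded Rab5c by 0.71 ± 0.20 per kb of exon, but by 1.98 without length and by 2.11 per kb of coding sequence. In the pairs whose lower gene was not detected the size rests strongly on these choices. Rab7 exceeded Rab7b by 5.03 ± 0.98 (4.28 to 6.39), Rab5a exceeded Rab5b by 4.799 ± 0.73 (4.03 to 6.61) and Rab5c exceeded Rab5b by 4.09 ± 0.56 (3.34 to 5.41). Rab27b exceeded Rab27a by 3.47 ± 0.53 (2.86 to 6.07), Rab6a exceeded Rab6b by 3.31 ± 0.76 (2.73 to 4.22) and Rab22a exceeded Rab31 by 3.20 ± 0.96 (2.62 to 5.08). The direction of each pair was the same under all of these settings, while the order of the pairs by size was not. Rab10 was set against Rab13, with 1, 1 and 28 counts, and Rab11a against Rab25, with 0, 0 and 20 counts, so no fold is given for either.

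**Figure D3:**
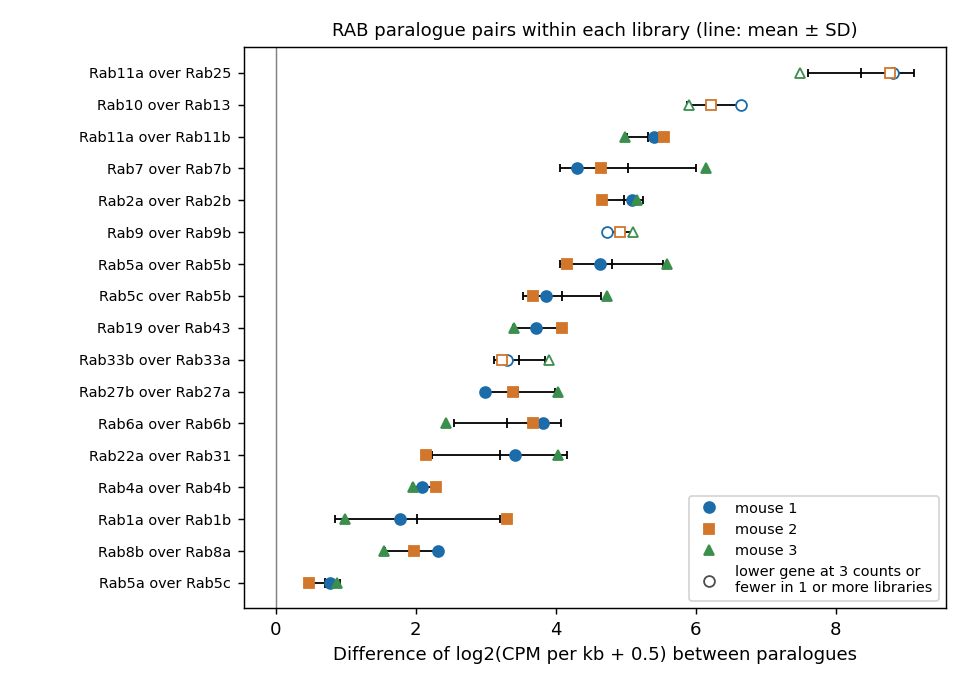
Difference of log2(CPM per kb + 0.5) (horizontal axis) between the higher and the lower gene of 17 RAB paralogue pairs, with 1 symbol per mouse and the mean ± SD as a line. Every symbol lies right of 0; open symbols mark pairs whose lower gene had 3 counts or fewer in at least 1 library. The pseudocount also bears on pairs drawn with filled symbols whose lower gene was not detected.

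Reads that fit both genes of a pair could have been divided by the counting. In the GENCODE M21 transcripts, read on both strands, no run of 50 bases was shared within any of the 17 pairs. Between other RAB genes 21 such runs were shared by Rab4b and Rab11b, 3 by Rab8a and Rab27a and 2 by Rab14 and Rab27b. No source used here states a read length. Some runs also lie in pseudogenes: 13.6% of the 50-base runs of Rab11b occur in other genes, mainly Rab11b-ps2, and 12.7% of those of Rab7, mainly Rab7-ps1. Larger shares occur mainly in genes with overlapping exons: 74.5% for Rab43 (Gm45140), 58.1% for Rab4b (Gm21983), 57.0% for Rab2b (Gm43766) and 49.6% for Rab24 (Prelid1). Rab20 (22.9%, E230013L22Rik), Rab33b (21.2%, Gm38160) and Rab6a (19.0%, Mrpl48) followed among detected genes. Among detected genes, Rab1a, Rab1b, Rab4a, Rab5c, Rab19, Rab21, Rab28, Rab29, Rab35 and Rab37 shared none with any gene.

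In 2 pairs 1 gene had no count, and their promoters are printed to show how far the sequence differs between a detected gene and its relative without counts. Rab9 was at least 341-fold higher per kb of exon than Rab9b, and Rab33b at least 28.5-fold higher than Rab33a, against 3 counts per library for the gene at 0. Both bounds depend on exon length, 1.75 kb for Rab9, 3.98 kb for Rab9b, 3.54 kb for Rab33b and 1.16 kb for Rab33a. Coding lengths are 603 bases for Rab9 and Rab9b, and 687 and 711 for Rab33b and Rab33a. By coding length the Rab9 bound would be lower and the Rab33b bound higher. The promoters come from RefSeq (GRCm38.p6) and run from 250 bases before to 50 after the start, 5′ to 3′, with each CG dinucleotide in capitals. Rab33b lies at chr3:51483716-51484015 on the + strand, Rab33a at chrX:48519035-48519334 (+), Rab9 at chrX:166479818-166480117 (-) and Rab9b at chrX:136868507-136868806 (-). The Rab33a window lies inside the annotated gene, which begins at 48513663, so its CG count rests on the start used.
Rab33b: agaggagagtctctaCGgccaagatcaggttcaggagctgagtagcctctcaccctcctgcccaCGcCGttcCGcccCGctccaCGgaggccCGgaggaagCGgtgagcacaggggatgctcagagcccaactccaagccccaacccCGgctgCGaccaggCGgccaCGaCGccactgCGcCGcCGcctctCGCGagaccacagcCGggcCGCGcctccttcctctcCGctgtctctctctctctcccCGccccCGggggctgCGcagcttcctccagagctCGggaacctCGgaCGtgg
Rab33a: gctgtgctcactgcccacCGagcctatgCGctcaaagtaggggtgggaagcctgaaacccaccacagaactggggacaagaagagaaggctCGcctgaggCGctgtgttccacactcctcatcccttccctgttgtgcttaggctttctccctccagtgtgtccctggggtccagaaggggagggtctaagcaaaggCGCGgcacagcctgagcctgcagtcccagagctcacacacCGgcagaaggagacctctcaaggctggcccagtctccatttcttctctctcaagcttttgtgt
Rab9: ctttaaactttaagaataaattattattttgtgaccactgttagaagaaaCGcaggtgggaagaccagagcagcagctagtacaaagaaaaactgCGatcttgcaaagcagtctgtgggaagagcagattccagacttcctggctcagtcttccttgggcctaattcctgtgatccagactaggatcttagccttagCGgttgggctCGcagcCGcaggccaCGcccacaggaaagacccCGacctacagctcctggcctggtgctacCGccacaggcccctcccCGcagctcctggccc
Rab9b: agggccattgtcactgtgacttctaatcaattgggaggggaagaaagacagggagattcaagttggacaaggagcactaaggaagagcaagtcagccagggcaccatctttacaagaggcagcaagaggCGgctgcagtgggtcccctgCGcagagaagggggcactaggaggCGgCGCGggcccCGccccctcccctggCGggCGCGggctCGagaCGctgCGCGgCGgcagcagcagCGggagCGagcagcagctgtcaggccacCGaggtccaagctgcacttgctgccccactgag
Rab33b has 28 CG and Rab33a has 7, but in the other pair Rab9b, without counts, has 17 and the detected Rab9 has 9. CG count thus did not follow detection within both pairs. Over the family, 48 genes had 60 promoters in the RefSeq table. They cover 25 of the 31 detected genes and leave out the 2 most abundant, Rab4a and Rab2a. The median CG count was 25 in 29 promoters of detected genes, 18 in 25 promoters of genes with counts that were not detected and 9.5 in 6 promoters of genes at 0, against 7 in all 32851 promoters of 300 bases. These 32851 promoters, of 27025 genes, were not limited to protein-coding genes as the RAB genes are. Promoters of 1 gene share sequence, and the counts ranged from 3 to 43 among detected genes and from 6 to 27 among those at 0, so the groups overlapped.

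Spread between the mice was the only property that could be tested across all genes. In bulk libraries fewer cells of a type and less RNA per cell cannot be told apart, and each library also carries its own sort and amplification. Of the 59 genes 36 passed the count filter, and each was compared with the dispersion trend of genes with similar counts by edgeR's quasi-likelihood F test. None of these 36 was called, that is, 0 had an adjusted p under 0.05 over the 9175 genes tested, against 0.185% of all tested genes. That reference share depended on the fit. Over all genes 17 were called, but 1 of 9131 without immunoglobulin genes and 0 with a prior robust to outlying genes. The RAB count was 0 in each of these fits. With 3 libraries this test has little power, and in a simulated table it missed most genes raised several-fold in 1 library. At an unadjusted p below 0.05 there was 1 (2.78%), against 4.53% of all genes. limma also called 0 RAB genes, against 0.185% of all genes, with 2 at an unadjusted p below 0.05, against 4.59%. DESeq2 marked 0 as dispersion outliers, against 0.272%. The median coefficient of variation was 21.3% in the 36 genes and 30.2% over all genes tested. The ratio of a gene's quasi-dispersion to the trend was above 1 in 41.7% of them and in 40.3% of all genes.

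Rab1b, the paralogue of Rab1a in the same transport step, had the highest ratio, 8.85. It had 18.1, 6.08 and 37.0 CPM per kb in mice 1, 2 and 3, a 6.08-fold range, with an adjusted p of 0.898 in edgeR. Without mouse 1 its adjusted p was 0.0681, and 5 of 37 RAB genes tested had an unadjusted p below 0.05 (Rab1b, Rab32, Rab22a, Rab5a and Rab7), against 5.66% of 9841 genes. Without mouse 2 there was 1 of 39, against 461 of 9788 genes, and without mouse 3 there were 2 of 39, against 504 of 9366 genes. The lowest adjusted p of a RAB gene in these 2 edgeR fits was 0.949 and 0.870. The 5 genes of the fit without mouse 1 were also the highest by ratio in the fit of all 3 libraries, where Rab5a had 3.95, Rab32 3.47, Rab7 3.25 and Rab22a 2.90. All 5 had their lowest value in mouse 2, as had 13 of the 36 tested and 36.9% of all tested genes. As the fit without mouse 1 sets mouse 2 against mouse 3, this follows in part from how the 5 were picked. Mouse 2 was the library with the fewest counts and the highest sum of NK cell and ILC1 markers. That sum rests on 1 gene, as Gzma gave 229 of its 244 CPM in mouse 2. Tbx21 and Eomes had at most 0.0569 CPM, and Ncr1 was highest in mouse 3. The part of depth and of these markers in the result was not tested. At the other end Rab11b (0.05), Rab9 (0.15) and Rab43 (0.16) had the lowest ratios.

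**Figure D4:**
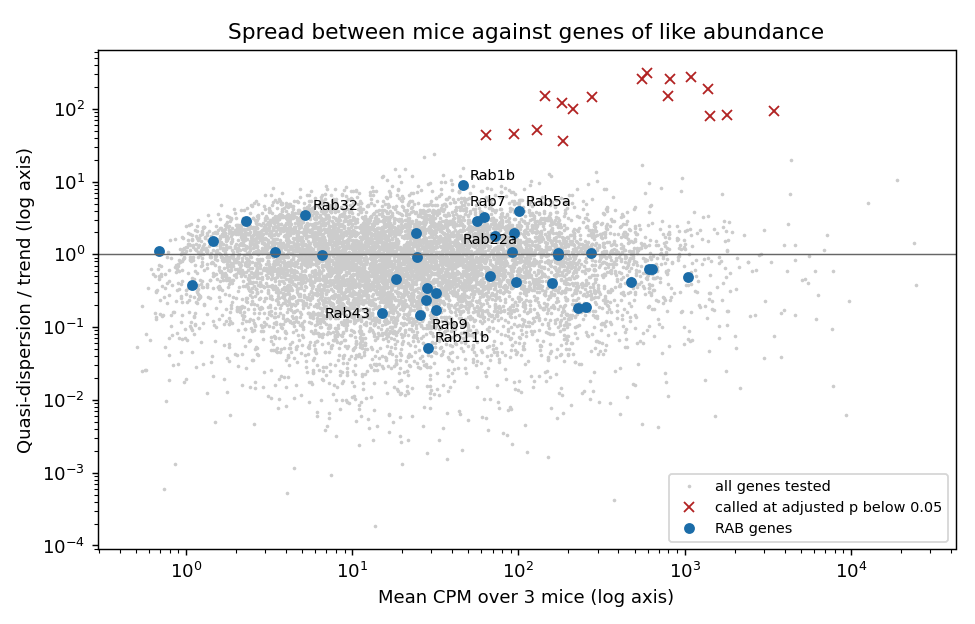
Ratio of each gene's quasi-dispersion to the abundance trend (vertical log axis) against its mean CPM over 3 mice (horizontal log axis). The 36 RAB genes (blue) lie within the cloud of 9175 tested genes (grey), from 0.05 for Rab11b to 8.85 for Rab1b, and none is among the 17 called genes (crosses).

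The RAB genes had their highest value in mouse 3 more often than genes at large. Of the 36 tested, 20 were highest in mouse 3 (55.6%), against 34.2% of all tested genes. In mouse 1 it was 9, against 32.2% of all, and in mouse 2 it was 7, against 33.5%. This is a count without a test, and members of a family are not independent. It was 19 to 20 with library sizes without TMM, with DESeq2 size factors and without immunoglobulin genes. The 11 that were highest in mouse 3 and lowest in mouse 1 had the order of the immunoglobulin share across the mice, a pattern held by 14.1% of all tested genes. The part of B lineage cells in these counts was not tested.

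Of the 19 genes with counts that were not detected, 14 had a library with 0 counts or a highest library more than 10-fold above the lowest. These 19 were set apart by a value under 1 CPM in at least 1 library, which favours such patterns. The same share among other genes of this kind was not counted, so it is not a trait of RAB genes. Rab27a, Rab23 and Rab7b had 1 order, highest in mouse 1 and lowest in mouse 3: Rab23, a cilium RAB, had 149, 39 and 4 counts and Rab7b 50, 12 and 4. Rab17 and Rab25, known from polarised epithelium, had 3, 0 and 85 and 0, 0 and 20 counts, and Rab13, of tight junctions, and Rab34 had 1, 1 and 28 and 1, 1 and 26. These 4 were thus highest in mouse 3. The 8 epithelial markers summed to 33.6, 9.95 and 27.7 CPM, with Epcam alone detected (29.4, 3.70 and 25.8 CPM). Krt18 and Vil1 had counts in mouse 2 only, Lgals4 had at most 4.10 CPM and Krt8 and Krt19 at most 0.114, and Cdh1 and Fabp2 were at 0. The part of epithelial RNA in these counts was not tested. In a fit without a count filter, which took in all 50 genes with a count, no RAB gene was called (lowest adjusted p = 0.727, edgeR), against 0.146% of 15092 genes.

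Genes that load, unload and follow RAB proteins were counted in 4 lists. Of 8 genes for escort, prenylation and GDP dissociation 6 were detected (75.0%), with 24 of 34 exchange factor genes (70.6%), 18 of 33 GTPase-activating protein genes (54.5%) and 26 of 47 effector genes (55.3%), against 38.0% of protein-coding genes. Detection in the lists was not tested. None of the 81 tested genes of these 4 lists was called for spread, where 0.185% of all genes were, and 3 had an unadjusted p below 0.05, where 4.53% of all genes did. Rabac1, which binds prenylated RAB proteins at the Golgi, had 388, 454 and 386 CPM per kb, a level between those of Rab4a and Rab2a. Rabggtb, the catalytic subunit of the RAB prenyltransferase, had 31.5, 45.5 and 42.9, and Gdi2, which extracts GDP-bound RAB proteins from membranes, had 20.3, 18.04 and 18.4. The highest exchange factor genes were TRAPP subunits, which act on RAB1 at the Golgi: Trappc2l with 108 ± 21.1 CPM per kb (SD, n = 3), Trappc1 with 81.5 ± 4.58 and Trappc4 with 76.0 ± 16.7. Tbc1d15 (46.6 ± 7.16), a GTPase-activating protein for RAB7, led its list, followed by Tbc1d10c (19.9 ± 8.79) and Tbc1d23 (7.09 ± 0.907). Among effectors, Sytl3, which belongs to the RAB27-binding synaptotagmin-like proteins, had 44.96, 30.95 and 43.8 CPM per kb. It was followed by Appl1 (17.8 ± 4.38), an early endosome adaptor that binds RAB5, and Vps41 (12.9 ± 4.61), a subunit of the complex that tethers late endosomes to lysosomes.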

How the data were processed

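The deposited table gives, for each library, the whole-number count of reads assigned to each Entrez gene. CASAVA 1.8.2 and STAR 2.3.0 with the mm10 build are named, per the submitters' processing notes; no source used here names the counting program or annotation. Per the labels' protocols a SMARTer ultra-low-input kit was used, which does not mark strand. Of 27179 gene IDs 25275 matched RefSeq (GRCm38.p6) by ID. Exon lengths are summed GENCODE M21 exons, and coding lengths come from the same annotation. The libraries differed by a chi-square of 133 to 226 per degree of freedom, far above sampling noise, and were counted as 3 samples; p-values measure the spread between them.

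CPM used TMM factors of 1.03, 0.987 and 0.989 (edgeR 4.0.16, R 4.3.3). For spread, an intercept-only quasi-likelihood fit was made on genes passing filterByExpr (minimum count 10), with TMM factors from those genes and an upper-tail F test. On a single table of simulated counts for these genes it made no false call but recovered few of the moderate shifts placed in 1 library and most of the very large ones. Every simulated gene had the same dispersion, so the rate of false calls among genes of differing dispersion was not measured. limma 3.58.1 and DESeq2 1.42.0 were alternatives, with other scalings, filters, pseudocounts and lengths and without each mouse. Genes named are the 12 most abundant, the 5 highest and 3 lowest in spread, the paralogue pairs, the secretion genes, genes at 0 and the 3 highest of each pathway list; the remaining members are given so that all are accounted for, and the printed promoters were chosen after values were seen. The members and lists were chosen with earlier results of these data known.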

Additional observations from a re-analysis of the deposited data

How the results depend on the processing

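No paired analysis was possible because there is only 1 group. No direction of a paralogue pair reversed, and of the comparisons of a main count or summary value with an alternative 47 stayed within 1.5 times or 1 SD and 9 did not. The count of detected RAB genes was 31, and 50 with at least 1 count in any library. The median coefficient of variation was 21.3%, and 41.2% without a filter. Of the paralogue pairs 7 had both genes detected, all 7 in 1 direction. The share of the 5 highest genes was 72.4%, 60.9% without division by length and 60.6% with coding length, for the same 5 genes. The shares by role and of Rab4a under other lengths were added after seeing the data. Without division by length Rab4a held 20.9% and exocytosis genes 24.8%. The median log2 level was 3.99, 6.06 without division by length and 2.58 over genes with a count in any library. Leaving out each mouse in turn gave 33 to 35 detected genes, 0 called for spread each time, a coefficient of variation of 17.7% (without mouse 3) to 21.1%, 17 to 19 pairs in 1 direction, a share of 71.2% to 73.6% and a median level of 3.64 (without mouse 3) to 3.93. With 2 libraries 1 residual degree of freedom remains. The cause of the shifts without mouse 3 was not tested. The largest shift of the median of all tested genes under another scaling was 0.06 on the log2 scale. Depth limits statements on genes at 0 to 0.115 to 0.171 CPM.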

Other observations

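Another vesicle GTPase family gave a scale for the RAB genes. Of 27 ARF, ARL and SAR genes 21 were detected (77.8%), beside 52.5% of the RAB genes and 38.0% of protein-coding genes. Arf4, which acts at the Golgi, reached 850 ± 88.1 CPM per kb (SD, n = 3), above Rab4a at 598 ± 74.7. Sar1a and Sar1b, which start coat assembly for export from the endoplasmic reticulum, had 209 ± 27.2 and 152 ± 18.4.

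The series title concerns the circadian clock, so motifs read by clock factors were counted in the RAB promoters on both strands. The E-box CACGTG was present in 6 of 60 promoters (10%) and in 7.15% of all promoters of that length, those of Rab24, Rab20, Rab5a, Rab21, Rab27a and Rab23. The motif AGGTCA, read by ROR and REV-ERB receptors, was present in 5 (8.33%) against 16.3%, and the D-box TTATGTAA in 1 (Rab29) against 0.938%. Each share rests on 6 or fewer promoters. The motif AGATAA, of the kind read by GATA factors, was present in 2 (3.33%) against 11.2%. The median share of G and C was 61.2% in the RAB promoters and 52.7% in all promoters, and the motif shares were not adjusted for it. All promoters here were not limited to protein-coding genes. A match is not a site of binding.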
